A study of Mus musculus with 9 samples.

Results

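Expression of 9 genes that mark macrophages was followed in cultured dendritic cells given tumor exosomes, fibroblast exosomes or none: *Maf*, *Adgre1*, *Mertk*, *Cd68*, *Trem2*, *Gpnmb*, *Apoe*, *Spp1* and *Axl*. They were chosen by name, as macrophage transcription factor, surface markers and lipid-associated macrophage genes, and are 9 of the 57238 entries of a table of estimated reads per gene. All 9 passed the filter on low counts, which kept 15028 entries for testing. The cells were bone marrow-derived dendritic cells (BMDCs) of wildtype C57BL/6 mice, which had been kept in GM-CSF at 20 ng/ml. By the sample labels the culture took 6 days. RNA was taken from purified BMDCs, by a purification that the methods do not describe. Control BMDCs (CTR) had no exosomes, NE-treated BMDCs had exosomes of NIH-3T3 cells, a fibroblast line that is not cancerous, and TDE-treated BMDCs had exosomes of tumor cells of a line that the labels do not name. Exposure lasted 24 h, and each group had 3 libraries. The labels do not say whether the libraries of a group came from separate cultures or animals, so p-values measure the spread between these libraries, which may be technical.

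Macrophages are phagocytes that clear dying cells, debris and lipoproteins, and GM-CSF cultures of mouse marrow are known to hold macrophage-like cells beside dendritic cells. MAF is a transcription factor of mature macrophages, F4/80 (the product of *Adgre1*) and CD68 are the surface and lysosomal proteins by which they are usually stained, and MERTK and AXL are receptor tyrosine kinases that bind dying cells through bridging ligands. TREM2, a lipid-sensing receptor, together with GPNMB, apolipoprotein E and osteopontin (the product of *Spp1*), characterizes macrophages that are loaded with lipid, as in fatty tissue, atheroma and the damaged brain.

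*Apoe*, *Trem2* and *Spp1* fell with TDEs against both other groups, and the 250 bases before their start sites are shown so that the starts of genes that moved together can be compared. RefSeq promoter sequences (GRCm38.p6) were matched by symbol for 7 of the 9 genes, all but *Maf* and *Adgre1*. The windows are chr7:19699189-19699438 on the minus strand for *Apoe*, chr17:48346151-48346400 on the plus strand for *Trem2* and chr5:104434861-104435110 on the plus strand for *Spp1*, each printed 5′ to 3′ along the gene. Capitals mark a match to GAGGAAGT, the core of the site bound by PU.1, the factor that defines myeloid cells.
Apoe: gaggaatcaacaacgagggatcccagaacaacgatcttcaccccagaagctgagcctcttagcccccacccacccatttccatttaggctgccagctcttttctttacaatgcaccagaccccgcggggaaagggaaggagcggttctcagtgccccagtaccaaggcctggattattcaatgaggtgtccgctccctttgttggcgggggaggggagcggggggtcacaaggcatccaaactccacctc
Trem2: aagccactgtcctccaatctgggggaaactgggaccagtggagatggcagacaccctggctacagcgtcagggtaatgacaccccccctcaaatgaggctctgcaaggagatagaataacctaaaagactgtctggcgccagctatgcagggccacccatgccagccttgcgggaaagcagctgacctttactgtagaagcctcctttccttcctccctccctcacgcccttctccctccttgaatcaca
Spp1: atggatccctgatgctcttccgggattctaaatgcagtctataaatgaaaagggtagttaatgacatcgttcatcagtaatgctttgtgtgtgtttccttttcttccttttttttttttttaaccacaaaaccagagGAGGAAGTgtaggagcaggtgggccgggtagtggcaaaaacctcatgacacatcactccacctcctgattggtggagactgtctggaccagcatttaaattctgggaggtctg

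Searched on both strands, GAGGAAGT lay in the 250 bases of 2.44% of 27025 promoters and, among the 7 genes, in that of *Spp1* alone, starting 113 bases before the start site. *Cd68* held the AP-1 site TGAGTCA at 149 and at 24 bases before its start site, and TGACTCA or TGAGTCA was found in 4.43% of promoters. None of the 7 windows held CACGTG (6.05% of promoters) or TCATGTG (3.22%), the E-box and M-box letters bound by MITF and TFEB, or TGCTGA (15.8%), a MAF half-site. The 3 printed windows thus shared none of the letters searched, and their GC content was 57.2% for *Apoe*, 56.0% for *Trem2* and 43.6% for *Spp1*.

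The libraries held between 17469782 and 21092943 estimated reads on genes. At this depth 3 reads, the most that a count of 0 allows for, came to 0.142 to 0.172 CPM, the reads of a gene scaled to library size, and the 9 genes lay far above it in every library. CTR replicate 1 stood apart from the other libraries. Its correlation with CTR replicate 3, at 0.853, was the lowest within any group. Counts of CTR replicates 2 and 3 differed with a chi-square per degree of freedom of 23.3, against 393 and 478 for the pairs with CTR replicate 1. Against the other CTR libraries, its genes of at most 1500 bases were higher by a median of 1.15 on the log2 scale. Its genes of at least 3500 bases had a median of -0.696. NE replicate 3 departed from its group in the same directions but less, with medians of 0.344 and -0.227. The TDE libraries departed from the rest of their group by at most 0.0427 on these medians. Values without CTR replicate 1 are given for each of the 9 genes, and for other genes named as changed where it moved the value by over 1.5 times.

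*Adgre1* rose with TDEs. It was at 206.1, 446.8 and 480.0 CPM in the CTR libraries, at 469.9, 487.0 and 405.2 CPM in NE-treated and at 2261, 2114 and 2312 CPM in TDE-treated BMDCs. Every TDE library was above every other library, and by mean CPM the gene moved from rank 417 among all genes in CTR to rank 25 in TDE-treated BMDCs. The rise was 5.90-fold against CTR (log2 fold change 2.56, SE 0.304, adjusted p = 0.0013, edgeR's quasi-likelihood test with Benjamini-Hochberg adjustment) and 4.91-fold against NE-treated BMDCs (2.30, SE 0.301, adjusted p = 0.00192). Without CTR replicate 1, the log2 fold change against CTR was 2.26. In bulk RNA, a larger share of cells that express a gene and more of its RNA per cell cannot be told apart, here and in all that follows.

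**Figure D1:**
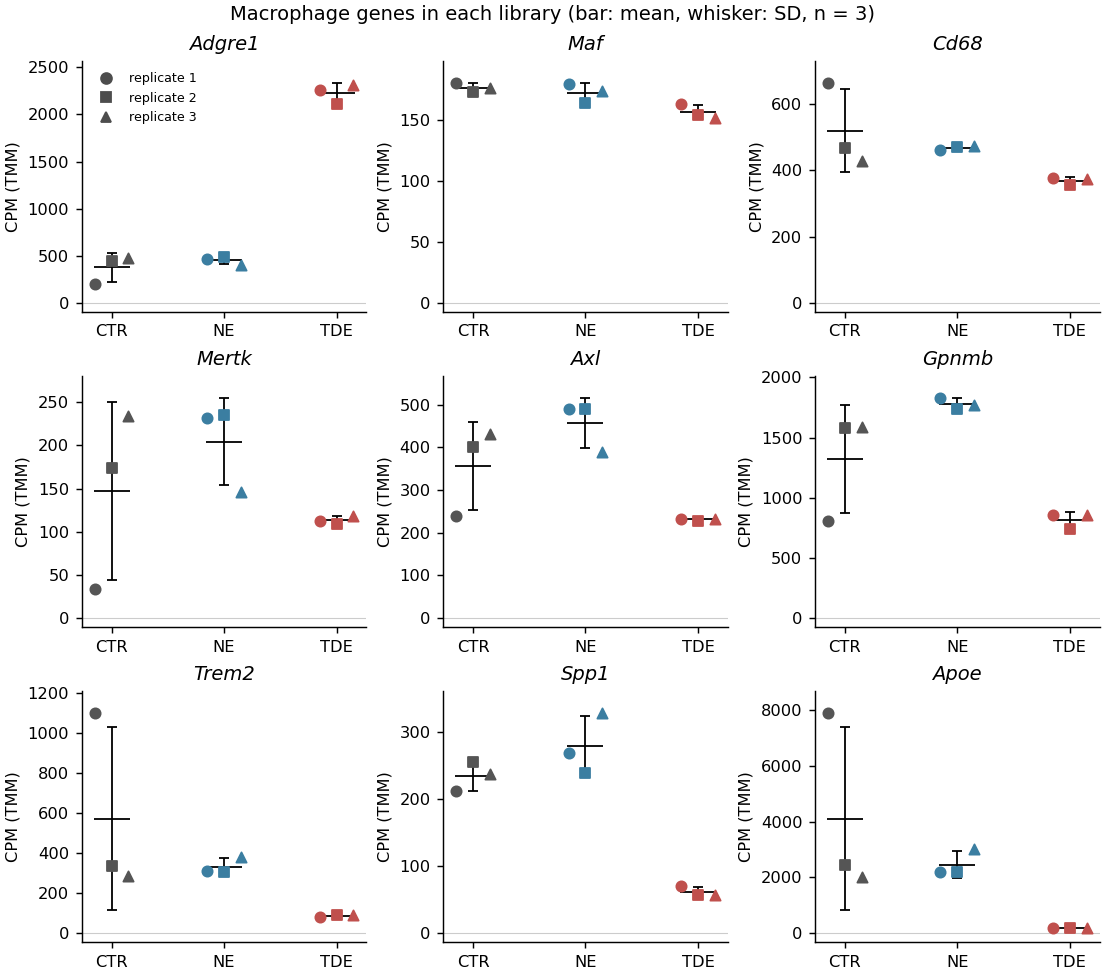
TMM-normalised CPM of each of the 9 genes (vertical axes, each from 0) in the 3 CTR, 3 NE-treated and 3 TDE-treated libraries, with the replicates as points, the mean as a bar and the SD as a whisker. *Adgre1* lay between 2114 and 2312 CPM in the TDE libraries and at or below 487.0 CPM in the others, while *Apoe*, *Trem2* and *Spp1* were lowest in the TDE libraries.

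*Maf* and *Cd68* did not pass the test over all 9 libraries. *Maf* was at 180.7, 173.0 and 176.8 CPM in CTR, at 179.6, 164.7 and 174.3 CPM in NE-treated and at 163.5, 154.8 and 152.2 CPM in TDE-treated BMDCs. The TDE libraries lay just below all others, but the log2 fold change of -0.17 (SE 0.11) against CTR did not pass the test (adjusted p = 0.285, and 0.504 against NE-treated BMDCs), and it was also -0.17 without CTR replicate 1 (adjusted p = 0.103). *Cd68* was at 662.7, 468.2 and 427.9 CPM in CTR, at 459.6, 471.4 and 473.0 CPM in NE-treated and at 378.1, 355.4 and 373.0 CPM in TDE-treated BMDCs. These groups did not overlap either, with a log2 fold change of -0.49 (SE 0.176, adjusted p = 0.0898) against CTR and of -0.34 (SE 0.176, adjusted p = 0.267) against NE-treated BMDCs. Without CTR replicate 1, *Cd68* fell by 0.29 on the log2 scale against CTR (adjusted p = 0.0114) and by 0.35 against NEs (adjusted p = 0.00207), and without CTR replicate 3 the value was -0.61 (adjusted p = 0.0399). Among the relatives of the products of *Adgre1* and *Cd68*, *Adgre5* (CD97, an adhesion receptor of the same family as F4/80) fell by 0.86 against CTR (SE 0.13, adjusted p = 0.00404), *Adgre4* and the lysosomal membrane genes *Lamp1* and *Lamp2* did not pass, *Lamp3* and *Lamp5* were too low to test, and *Lamp5* had no read in any library.

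Of the receptors for dying cells, *Axl* was at 239.4, 400.1 and 430.5 CPM in CTR, at 490.7, 490.3 and 388.6 CPM in NE-treated and at 233.2, 228.6 and 232.1 CPM in TDE-treated BMDCs. All TDE libraries were below both other groups, with CTR replicate 1 just above them. *Axl* was lower with TDEs than with NEs (1.97-fold, log2 fold change -0.98, SE 0.224, adjusted p = 0.0223), and did not pass when NE replicate 1 or 2 or any 1 TDE library was left out (adjusted p 0.0887 to 0.0951). These fits kept CTR replicate 1, and with it left out of the shared fit the value was -0.99 (adjusted p = 5.79e-05). The *Axl* value of -0.62 (SE 0.223) against CTR did not pass (adjusted p = 0.0901) but did without CTR replicate 1 (-0.85, adjusted p = 0.000326). *Mertk* was at 33.65, 174.2 and 233.6 CPM in CTR, at 231.9, 234.9 and 146.5 CPM in NE-treated and at 112.4, 109.0 and 118.7 CPM in TDE-treated BMDCs. The CTR libraries spanned the TDE libraries, so that the log2 fold change was -0.38 (SE 0.56, adjusted p = 0.643), -0.86 without CTR replicate 1 (adjusted p = 0.00956) and 0.13 without CTR replicate 3 (adjusted p = 0.873). Against NEs the groups did not overlap, and *Mertk* did not pass over all 9 libraries (-0.85, SE 0.563, adjusted p = 0.413) but did with CTR replicate 1 left out of the shared fit (-0.86, adjusted p = 0.00493).

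Genes of the same clearance pathway were counted in a list of 15, of which 11 were tested. Against CTR, 4 fell and none rose with TDEs, and against NEs 5 fell and none rose, with medians of -0.455 and -0.851 on the log2 scale, and 5 fell against CTR without CTR replicate 1. For this and the later lists, 9.34% of all tested genes fell and 7.57% rose against CTR, and 7.21% and 6.73% against NEs. Their medians were -0.055 and -0.0236. Without CTR replicate 1, 18.0% of all genes fell and 16.4% rose against CTR. *Gas6*, the ligand that links both AXL and MERTK to dying cells, fell from 18.17 ± 2.13 to 4.24 ± 0.322 CPM (SD, n = 3; log2 fold change -2.10, SE 0.163, adjusted p = 0.000204). *Mfge8*, a bridging protein that joins dying cells to integrins, fell by 2.28 (SE 0.35, adjusted p = 0.00426), and the scavenger receptor gene *Stab1* and the integrin gene *Itgb3* also fell. *Pros1*, the other ligand of these kinases, changed by -0.46 against CTR (adjusted p = 0.187) and fell by 0.85 against NEs (adjusted p = 0.0412). *Tyro3*, the remaining kinase of the family, was at 1.07 CPM in CTR and did not pass (-1.13, adjusted p = 0.148).

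*Apoe* had the greatest difference of the 9 genes. It was at 7898, 2435 and 2001 CPM in CTR, at 2179, 2180 and 3017 CPM in NE-treated and at 180.9, 194.9 and 184.6 CPM in TDE-treated BMDCs. By mean CPM its rank among all genes was 16 in CTR and 23 with NEs, and 998 with TDEs. The fall was 22.0-fold against CTR (log2 fold change -4.46, SE 0.545, adjusted p = 0.00146) and 13.2-fold against NEs (-3.72, SE 0.526, adjusted p = 0.0028), and without CTR replicate 1 the log2 value against CTR was -3.58 (adjusted p = 9.32e-07).

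The surroundings of *Apoe* in lipid handling moved less uniformly. The gene is induced by the oxysterol receptor LXR, and of 10 tested genes of LXR and its targets none passed edgeR's test in either comparison. Against CTR, 2 had an unadjusted p under 0.05, DESeq2 called 2 and voom 6, and without CTR replicate 1, 2 rose and 2 fell. Against NEs, 3 had an unadjusted p under 0.05, DESeq2 called 3 and voom 9, and without CTR replicate 1, 1 rose and 5 fell. *Apoc1* and *Apoc2*, of the gene cluster that holds *Apoe*, had log2 fold changes of -2.06 (adjusted p = 0.0977) and -2.07 (adjusted p = 0.0715) against CTR, and *Abca1*, a cholesterol exporter, one of 0.93 (adjusted p = 0.22). The value of *Apoc2* was -0.66 without CTR replicate 1 and passed (adjusted p = 0.0239), and that of *Apoc1* was -0.46 (adjusted p = 0.194). Of 6 tested receptors for apolipoprotein E, 1 rose and 1 fell in each of the TDE comparisons. *Scarb1* rose by 0.95 against CTR (SE 0.143, adjusted p = 0.00404), and *Lrp1*, *Vldlr*, *Lrp8* and *Sorl1* did not pass.

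*Trem2* was at 1097, 332.7 and 283.4 CPM in CTR, at 309.2, 306.2 and 379.3 CPM in NE-treated and at 82.80, 92.64 and 88.55 CPM in TDE-treated BMDCs. All TDE libraries were below 100 CPM, under every other library. The fall was 6.49-fold against CTR (log2 fold change -2.70, SE 0.492, adjusted p = 0.00836) and -1.82 on the log2 scale without CTR replicate 1 (adjusted p = 7.88e-06). Against NEs it was 3.77-fold (-1.91, SE 0.478, adjusted p = 0.0317), and leaving out any 1 of the NE or TDE libraries took the adjusted p above the threshold, to between 0.0809 and 0.122. All of these fits kept CTR replicate 1. With that library left out of the shared fit, the value against NEs was -1.92 (adjusted p = 2.37e-06). In a list of 11 genes of TREM2 signaling, 3 rose and none fell against CTR, and 1 rose and none fell against NEs. *Syk*, the kinase recruited by the receptor complex, rose by 0.76 (SE 0.202, adjusted p = 0.0375), *Vav1*, a signaling exchange factor, rose by 0.56 (SE 0.13, adjusted p = 0.0226), and *Treml4*, a gene of the same receptor family, rose by 0.50 (adjusted p = 0.0451). Against NEs *Vav1* rose by 0.67 (adjusted p = 0.0117), and *Syk* (0.61, adjusted p = 0.0842) and *Treml4* (0.41, adjusted p = 0.0959) did not pass. With CTR replicate 1 left out of the shared fit, *Syk* (adjusted p = 0.000984) and *Treml4* (0.00532) passed against NEs, and 3 of the list rose and 1 fell. Of 18 other settings, *Syk* passed against CTR in 7, *Treml4* in 6 and *Vav1* in 11, and none of these 3 did when any 1 TDE library was left out. *Tyrobp*, the adaptor through which TREM2 signals, was at 892.7 ± 628.6 CPM in CTR and 465.0 ± 3.70 CPM in TDE-treated BMDCs (SD, n = 3), a difference of -0.94 that did not pass (adjusted p = 0.148).

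*Spp1* was at 210.8, 254.1 and 236.1 CPM in CTR, at 267.7, 238.6 and 327.3 CPM in NE-treated and at 70.16, 56.39 and 57.36 CPM in TDE-treated BMDCs. Every TDE library was below every other library, and CTR replicate 1 lay close to the other CTR libraries. The fall was 3.81-fold against CTR (log2 fold change -1.93, SE 0.172, adjusted p = 0.000367) and 4.53-fold against NEs (-2.18, SE 0.173, adjusted p = 0.00018). The log2 fold change against CTR was -2.01 without CTR replicate 1 (adjusted p = 1.32e-05). Of 8 tested receptors and relatives of osteopontin, the integrin genes *Itgb5* (-1.13, adjusted p = 0.00889) and *Itgb3* (-1.07, adjusted p = 0.00131) fell against CTR and *Itga9*, for another integrin chain, rose. *Itga9* had 3 reads or fewer in each CTR library and was at 5.34 ± 0.832 CPM with TDEs (SD, n = 3; adjusted p = 0.000446). *Cd44*, the hyaluronan receptor that also binds osteopontin, changed by -0.39 against CTR (adjusted p = 0.0621) and fell by 0.54 against NEs (adjusted p = 0.0202).

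*Gpnmb*, for a glycoprotein of lysosomes and melanosomes, was at 804.4, 1579 and 1585 CPM in CTR, at 1827, 1737 and 1773 CPM in NE-treated and at 852.9, 742.6 and 855.4 CPM in TDE-treated BMDCs. TDE-treated BMDCs were below NE-treated ones by more than 2-fold and overlapped CTR only through CTR replicate 1. The difference passed against NEs (2.18-fold, log2 fold change -1.12, SE 0.252, adjusted p = 0.0209), with adjusted p between 0.0639 and 0.0986 when any 1 NE or TDE library was left out. Those fits kept CTR replicate 1, and with it left out of the shared fit the difference was -1.13 (adjusted p = 5.25e-06). Against CTR it was -0.70 (SE 0.25, adjusted p = 0.0924), and -0.96 without CTR replicate 1 (adjusted p = 3.26e-05). *Gpnmb* is a target of the MiT/TFE factors of lysosome formation, of which *Tfec* fell by 0.83 (SE 0.123, adjusted p = 0.00368) and *Mitf*, *Tfeb* and *Tfe3* did not pass.

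**Figure D2:**
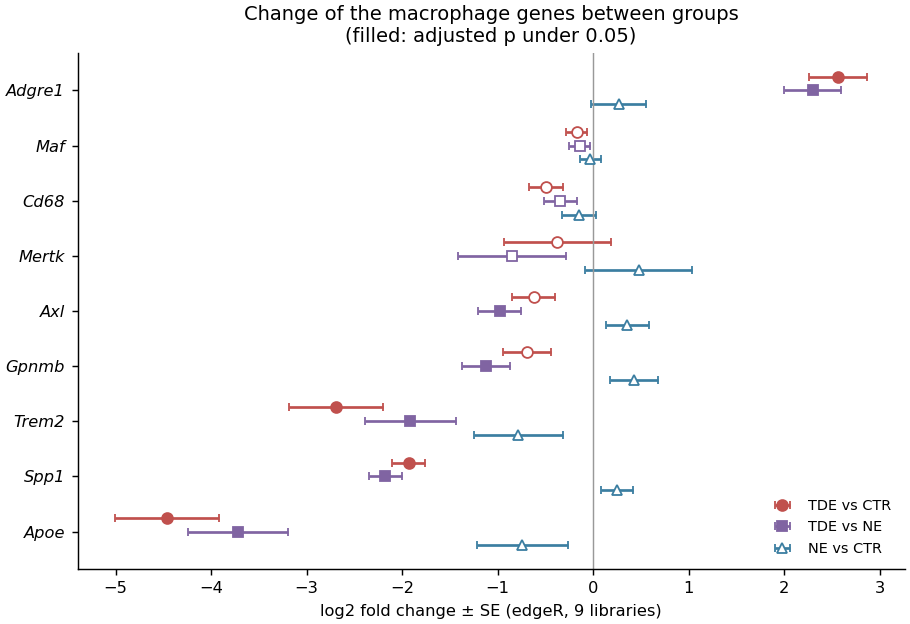
Log2 fold change with its SE (horizontal axis) for each of the 9 genes in the 3 comparisons, from edgeR's fit to 9 libraries, with filled symbols for an adjusted p under 0.05. *Adgre1* lay to the right of 0 at 2.56 and 2.30, *Apoe* furthest to the left at -4.46 and -3.72, and all NE against CTR symbols were open.

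Counted together, 4 of the 9 genes passed between TDE-treated and CTR BMDCs, 1 higher and 3 lower, where 16.9% of all tested genes passed, 7.57% higher and 9.34% lower. Between TDE- and NE-treated BMDCs 6 of the 9 passed, 1 higher and 5 lower, where 13.9% of all genes passed, 6.73% higher and 7.21% lower. The libraries did not overlap for 7 of the 9 genes in the first comparison, where they did not for 44.0% of all tested genes, and for all 9 in the second, where they did not for 54.5%. The median log2 fold change of the 9 genes was -0.625 and -0.981, against -0.055 and -0.0236 over all tested genes. Without CTR replicate 1, 8 of the 9 passed against CTR, all but *Maf*, and 34.4% of all genes did (16.4% higher, 18.0% lower), and 8 passed against NEs, where 40.7% of all genes did (19.2% higher, 21.5% lower). Both comparisons use the same TDE libraries.

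Between NE-treated and CTR BMDCs no gene passed edgeR's test among the 9 or among all 15028 (0%, in either direction), 487 of which had an unadjusted p under 0.05, and DESeq2 and limma voom called 6 and 18. Of the 9 genes, 0 had an unadjusted p under 0.05 and 0 were called by DESeq2 or voom. Log2 fold changes of the 9 genes ran from -0.78 (SE 0.464) for *Trem2* and -0.74 (SE 0.475) for *Apoe* to 0.47 (SE 0.561) for *Mertk*. *Gpnmb* was the 1 of the 9 whose libraries did not overlap, at 0.43 (SE 0.25), as for 7.71% of all tested genes. Without CTR replicate 1 the same genes had 0.10, 0.15, 0.0018 and 0.17, in that order.

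CTR replicate 1 departed from its group by gene length also within the 9 genes, with 2 exceptions. It was 3.56 times the mean of the other CTR libraries for *Apoe* (1221 bases in the deposited table), 3.56 times for *Trem2* (1056 bases) and 1.48 times for *Cd68* (1008 bases). For the longer genes the ratio was 0.445 for *Adgre1* (3238 bases), 0.508 for *Gpnmb* (3701 bases), 0.577 for *Axl* (4265 bases) and 0.165 for *Mertk* (4302 bases). *Maf* (3223 bases) at 1.03 and *Spp1* (1411 bases) at 0.860 stayed close to their group. With offsets fitted to gene length, a setting chosen after seeing the data, *Cd68* had a log2 fold change of -0.07 against CTR (adjusted p = 0.785), and *Axl* (-0.77) and *Gpnmb* (-0.78) passed.

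**Figure D3:**
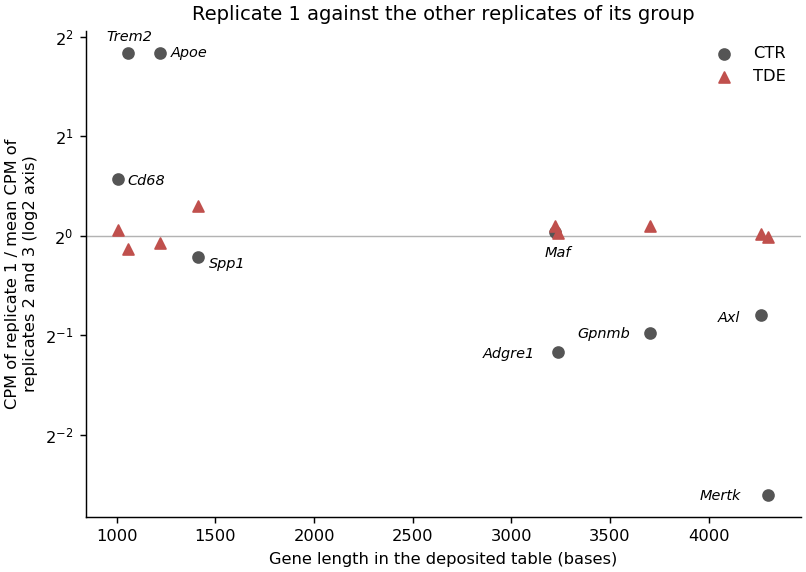
Ratio of replicate 1 to the mean of replicates 2 and 3 of its group (vertical axis, log2 scale) against the gene length in the deposited table (horizontal axis, bases), for the 9 genes in CTR (circles) and TDE-treated BMDCs (triangles). The CTR ratios ran from 3.56 for *Apoe* and *Trem2* to 0.165 for *Mertk*, and the TDE ratios stayed near 1.

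Levels of different genes were compared as CPM per kilobase of the deposited length. In CTR the order of the means was *Apoe* at 3367, *Trem2* at 540.7, *Cd68* at 515.4, *Gpnmb* at 357.4, *Spp1* at 165.6, *Adgre1* at 116.6, *Axl* at 83.62, *Maf* at 54.87 and *Mertk* at 34.21 CPM per kilobase, and the libraries overlapped between *Trem2* and *Cd68*, *Cd68* and *Gpnmb*, *Adgre1* and *Axl*, and *Maf* and *Mertk*. With CTR replicate 1 left out, the order was *Apoe* at 1817, *Cd68* at 444.5, *Gpnmb* at 427.5 and *Trem2* at 291.7 CPM per kilobase, so that *Trem2* fell behind *Cd68* and *Gpnmb* with no overlap, and the others kept their order. NE-treated BMDCs had *Apoe* first at 2014 and *Adgre1* sixth at 140.2 CPM per kilobase. In TDE-treated BMDCs *Adgre1* came first at 688.4, before *Cd68* at 365.9, *Gpnmb* at 220.7, *Apoe* at 153.0, *Trem2* at 83.33, *Axl* at 54.24, *Maf* at 48.66, *Spp1* at 43.45 and *Mertk* at 26.36 CPM per kilobase, and only *Maf* and *Spp1* overlapped among neighbours.

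The summed CPM of the 9 genes was 11330, 6263 and 5854 in CTR, and 6415, 6310 and 7084 with NEs. With TDEs it was 4335, 4049 and 4374. *Adgre1* made up 1.82, 7.13 and 8.20% of the sum in CTR and 7.32, 7.72 and 5.72% with NEs. With TDEs its share was 52.2, 52.2 and 52.9%. The TDE sums were below all others although *Adgre1* alone added over 2000 CPM to them.

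**Figure D4:**
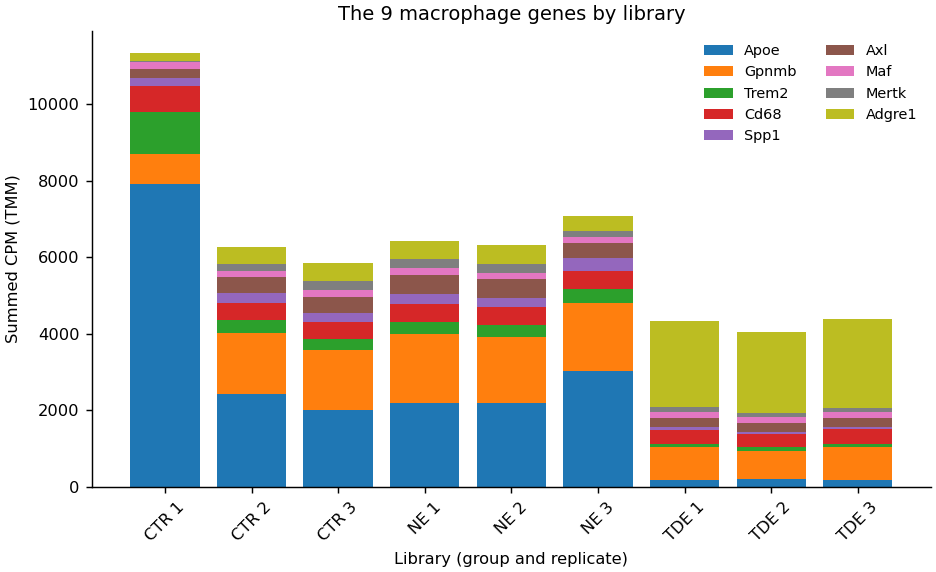
Summed CPM of the 9 genes (vertical axis, from 0) in each of the 9 libraries (horizontal axis), with each gene as a segment. *Apoe* was the tallest segment in the CTR and NE libraries, and *Adgre1*, at 52.2 to 52.9% of the sum, in the TDE libraries.

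Other genes of the lipid-associated macrophage program were counted in a list of 17, all tested. Of these 10 fell and none rose with TDEs against CTR (median log2 fold change -1.03), 9 fell and none rose against NEs (median -1.04), and 14 fell against CTR without CTR replicate 1. *Lgals3* (galectin-3) fell by 1.90 (SE 0.451, adjusted p = 0.0248), *Fabp4*, a fatty acid-binding protein, by 1.71 (SE 0.404, adjusted p = 0.0241), and the lipase genes *Lpl* and *Lipa*, the cathepsin genes *Ctsb* and *Ctsl*, the lipid droplet coat gene *Plin2*, the glucan receptor gene *Clec7a*, *Cd63* and *Fabp5* were the others. Leaving out CTR replicate 1, *Lgals3* fell by 1.11 against CTR, *Fabp4* by 1.06 and *Cd63* by 0.92 (by 1.62 over all libraries). Against NEs *Lgals3* (adjusted p = 0.131), *Fabp4* (0.0685), *Cd63* (0.152) and *Fabp5* (0.164) did not pass, and *Cd9*, *Itgax* and *Cd36* did. Each of the former passed against NEs with CTR replicate 1 left out of the shared fit. Of 18 other settings, *Cd63* passed against CTR in 10 and *Fabp5* in 8. The summed level of the list was 16800 to 35500 CPM in CTR, 18400 to 20800 CPM in NE-treated and 9790 to 10300 CPM in TDE-treated BMDCs.

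The general macrophage list did not share a direction. Of 17 tested genes of 19, 2 rose and 2 fell against CTR (median -0.275), and 1 rose and 2 fell against NEs. Without CTR replicate 1, 5 rose and 7 fell against CTR. The summed level of the list was 35600 to 52900 CPM in CTR, 36100 to 41500 CPM with NEs and 36600 to 37800 CPM with TDEs. *Marco*, a scavenger receptor for bacteria and particles, rose from 138.6 ± 109.0 to 1553 ± 32.96 CPM (SD, n = 3; log2 fold change 3.49, SE 0.506, adjusted p = 0.00338), and *Siglec1*, the sialic acid receptor CD169, rose by 1.52 (SE 0.4, adjusted p = 0.0359). *Siglec1* passed against CTR in 9 of 18 other settings and did not pass against NEs (0.92, adjusted p = 0.181). With CTR replicate 1 left out of the shared fit, *Siglec1* passed against NEs (0.91, adjusted p = 0.0048), and 5 of the list rose and 7 fell. The value of *Marco* was 4.35 without CTR replicate 1. The complement gene *C1qb* fell by 1.95 (SE 0.542, adjusted p = 0.0425) and, without CTR replicate 1, by 0.91 (adjusted p = 0.00126). It passed in 10 of 18 other settings, and did not when any 1 NE or TDE library was left out. The receptor gene *Csf1r* was at 1788 ± 369.0 CPM in CTR and 2032 ± 62.39 CPM in TDE-treated BMDCs and did not pass (adjusted p = 0.49). *Itgam* (CD11b), at 1329 ± 846.0 and 3332 ± 134.3 CPM, had an adjusted p of 0.108, and of 0.00192 without CTR replicate 1 (log2 fold change 0.87). *Clec4f*, a marker of liver macrophages, had no read in any library, and *Timd4*, of resident macrophages, was below 3 reads on average. Of 7 tested genes of the MAF family and its partners, 1 rose and 1 fell against CTR, and 1 rose and 2 fell against NEs. The small MAF gene *Maff* rose by 1.40 against CTR (SE 0.227, adjusted p = 0.00541), and *Mafg* and *Mafk* did not pass.

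**Figure D5:**
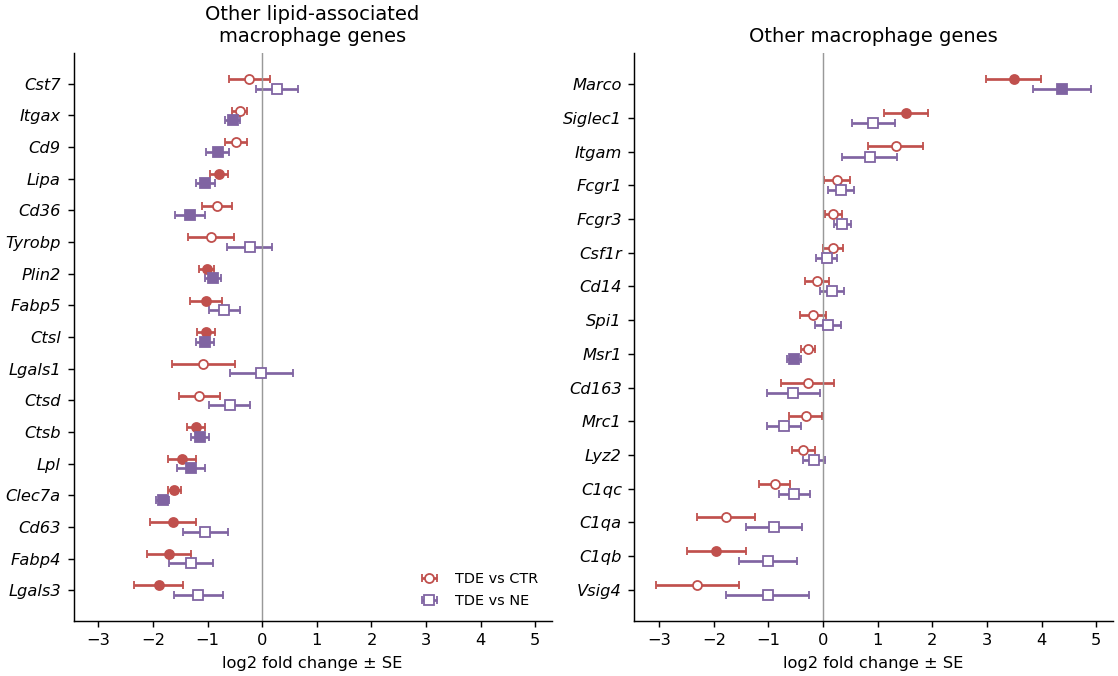
Log2 fold change with its SE (horizontal axes) of tested genes of the lipid-associated list (left) and of the general macrophage list (right), with circles for TDE against CTR, squares for TDE against NE and filled symbols for an adjusted p under 0.05. *Marco* stood furthest to the right, at 4.37 against NE and 3.49 against CTR, and of the lipid-associated genes those that passed against CTR lay between -0.79 and -1.90.

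Markers of other cells moved in the same comparisons. Dendritic cell genes were present, with 1 of 16 (*Cd209a*) below 3 reads on average in every group, *Flt3* at 14.07 CPM in CTR and 14.27 CPM with TDEs and *Zbtb46* at 18.33 and 14.68 CPM. Of 15 tested, 5 fell and none rose against CTR, led by *Cd74* (-2.36, adjusted p = 0.0165), the invariant chain of MHC class II, and the migration receptor *Ccr7* (-1.43, adjusted p = 0.0131), and without CTR replicate 1, 2 rose and 9 fell, with *Cd74* at -1.45 (adjusted p = 7.48e-05). Against NEs 3 of the 15 fell and none rose, and *Cd74* (-1.35, adjusted p = 0.115) and *Ccr7* (-0.88, adjusted p = 0.082) did not pass. With CTR replicate 1 left out of the shared fit, 10 fell and 2 rose against NEs, where 21.5% and 19.2% of all genes did. *Cd74* (-1.36, adjusted p = 4.85e-05) and *Ccr7* (-0.89, adjusted p = 0.000151) were then among those that fell. The summed level of the dendritic cell genes was 4440 to 13100 CPM in CTR, 4230 to 5240 CPM in NE-treated and 2490 to 2640 CPM in TDE-treated BMDCs. All 8 eosinophil genes fell, led by *Ear2* (-3.98, adjusted p = 6.98e-05) and *Prg2* (-3.01, adjusted p = 0.00433), from a sum of 626 to 1670 CPM in CTR and 639 to 726 CPM in NE-treated to 115 to 144 CPM in TDE-treated BMDCs. Reads of the *Ear* genes, a family of near-identical copies, may have been split among them. Mouse eosinophils also carry F4/80, the product of *Adgre1*, and their share of the *Adgre1* RNA was not tested. Of 14 neutrophil genes 10 fell, led by *Retnlg* (-4.87, adjusted p = 0.00381) and *Camp* (-4.71, adjusted p = 0.00462), with sums of 7720 to 29500, 8140 to 11500 and 3710 to 4010 CPM in CTR, NE and TDE libraries, and 12 fell and 1 rose without CTR replicate 1. Also, 5 of 6 tested mast cell and basophil genes fell, led by *Mcpt8* (-3.70, adjusted p = 0.00664) and *Fcer1a* (-2.84, adjusted p = 0.00209), with sums of 117 to 250, 125 to 155 and 28.2 to 31.1 CPM in the same order. Leaving out CTR replicate 1, the log2 fold changes against CTR were -2.23 for *Prg2*, -3.57 for *Retnlg*, -3.37 for *Camp* and -2.56 for *Mcpt8*. Against NEs all 8 eosinophil, 7 of 14 neutrophil and 6 of 6 tested mast cell and basophil genes fell, and none rose. Of the monocyte genes, *Spn* (0.94, adjusted p = 0.00113) and *Cx3cr1* (0.85, adjusted p = 0.0136) rose. None of the 8 eosinophil or 14 neutrophil genes was at 0 in all libraries, and the part of these cells in the changes of the 9 genes was not tested.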

How the data were processed

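RNA of 9 BMDC libraries (3 each of CTR, NE and TDE) was sequenced on a NovaSeq instrument from oligo(dT) and random primers and aligned with TopHat2 2.1.1, and the submitters' processing notes also name DESeq2 1.24.0 and R 3.3.1. The authors deposited estimated counts (expected counts) per gene without normalization, with gene lengths. The counting program, strand setting, genome build and annotation are not given in the sources used here. The paper's methods give a culture of 1 day more than the labels.

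Counts were rounded to whole numbers, filtered with filterByExpr on the 3 groups and TMM-normalised, and edgeR 4.0.16 (quasi-likelihood F test, R 4.3.3) fitted 1 mean per group over the 9 libraries. P-values were adjusted by Benjamini-Hochberg over all 15028 tested genes, with a threshold of 0.05. The SE came from the log2 fold change and its F value. CPM values are TMM-normalised, and floors of 3 reads cover counting error only. Tables and plots used Python 3.11.15. The code was tested on simulated data.

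The 9 genes and the 19 gene lists were chosen with earlier results of these data known. From each list the text names up to 2 rising and up to 2 falling genes, those that changed most on the log2 scale of the ones that passed between TDE and CTR, and other list genes were named after their values were seen. A few list genes that the rule would name are not reported here. Alternatives were DESeq2 1.42.0, limma 3.58.1 voom with sample quality weights, median-ratio factors, library totals, no filter, at least 10 counts in every library, the 6 libraries of a pair, a replicate block, each library left out in turn and, chosen after seeing the data, gene length offsets. In GENCODE vM21 (GRCm38) all 9 are protein-coding: *Maf* 8:115682942-115707794, *Adgre1* 17:57358691-57483527, *Mertk* 2:128698956-128802894, *Cd68* 11:69664213-69666153, *Trem2* 17:48346401-48354147, *Gpnmb* 6:49036546-49070929, *Apoe* 7:19696109-19699188, *Spp1* 5:104435118-104441050 and *Axl* 7:25757273-25788705. Exons of *Maf* overlap those of antisense *Gm15655* by 440 bases, and exons of *Spp1* those of *Gm42793* by 309 bases. Both overlapping genes were at 3.12 CPM or less on average in every group.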

Additional observations from a re-analysis of the deposited data

How the results depend on the processing

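Over 18 other settings, *Adgre1*, *Apoe* and *Spp1* passed the test in both TDE comparisons under each, and *Trem2* did against CTR. Between TDE and CTR the count of all genes moved from 2541 to 4018 (DESeq2), 7886 (voom), 1152 (the 6 libraries of the pair) and 1103 to 5263 (1 library left out), and of the 9 genes from 4 to 7 (DESeq2), 8 (voom) and 4 to 8 (1 library left out). Between TDE and NE the count of all genes moved from 2095 to 8311 (voom), 6072 (the pair), 3173 (length offsets) and 970 to 6223 (1 library left out), and of the 9 genes, from 6, between 3 and 8 when 1 library was left out. With library totals *Gpnmb* (adjusted p = 0.0591) and *Axl* (0.0725) did not pass against NEs. Between NE and CTR the count of all genes was 6 (DESeq2), 18 (voom) and 0 to 3 (1 library left out, 3 without CTR replicate 1). The causes were not tested.

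Replicate numbers are shared by the groups, but same-numbered libraries did not deviate together (r from -0.585 to 0.185). With the numbers as a replicate block, 1285 genes passed between TDE and CTR, 4 of the 9 among them, and 1175 between TDE and NE, 3 of the 9 among them: *Trem2* (adjusted p = 0.0637), *Gpnmb* (0.0601) and *Axl* (0.0682) were lost.

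Log2 fold changes turned in direction, without passing the test, for *Mertk* in TDE against CTR, at -0.86 to 0.13 when 1 library was left out (0.13 without CTR replicate 3). In NE against CTR they turned for *Maf* (0.10 with library totals, 0.0037 with no filter), *Cd68* (0.014 with voom, 0.019 with library totals, 0.23 with length offsets) and when 1 library was left out: *Maf* -0.057 to 0.0051 (without NE replicate 2), and, each turning without CTR replicate 1, *Adgre1* -0.031 to 0.48, *Cd68* -0.27 to 0.061, *Trem2* -1.10 to 0.10 and *Apoe* -1.06 to 0.15. Library totals moved the median of all genes in NE against CTR to 0.124.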

Other observations

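The genes whose log2 CPM over the 9 libraries was most like that of each gene, among 10444 tested genes of at least 5 CPM on average, are given as a description, since libraries of 3 groups share their treatment and CTR replicate 1 its length pattern. They were *Alkbh5* (r = 0.9986) and *Fyb* (0.9985) for *Adgre1*, *Angptl4* (0.9984) and *Rflnb* (0.9982) for *Apoe*, *Lsp1* (0.9977) and *Tmem132a* (0.9977) for *Trem2*, and *Idi1* (0.9972) and *Egr1* (0.9958) for *Spp1*. *Sgms1* (0.9959) and *Knop1* (0.9958) were most like *Gpnmb*, *Ifi207* (0.9953) and *Cgnl1* (0.9951) most like *Axl*, *Usp31* (0.9982) and *Gda* (0.9981) most like *Mertk*, *Tbrg4* (0.9984) and *Fabp5* (0.9971) most like *Cd68*, and *Mblac1* (0.9798) and *Cactin* (0.9683) most like *Maf*. Within the 9 genes, *Trem2* and *Apoe* followed each other (r = 0.978), as did *Gpnmb* and *Axl* (r = 0.975).

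Of 5 tested lymphocyte genes, 4 fell with TDEs against CTR, led by *Cd8a* (log2 fold change -4.02, adjusted p = 0.00022) and *Cd79a* (-1.58, adjusted p = 0.0137), with summed levels of 24.4 to 38.9 CPM in CTR and 11.1 to 11.6 CPM in TDE-treated BMDCs. CD8a also marks a class of mouse dendritic cells. Of 7 tested fibroblast genes, *Dcn* (decorin, 0.339 to 3.34 CPM, log2 fold change 3.23, adjusted p = 0.00339) and *Pdgfrb* (0.95, adjusted p = 0.0357) rose, and the list summed to 6.77 to 8.24 CPM in CTR and 12.0 to 12.7 CPM in TDE-treated BMDCs. Of 2 tested epithelial genes, *Cdh1* fell (-0.74, adjusted p = 0.0282), and *Cldn4* had no read in any library. Of 4 tested erythroid and megakaryocyte genes, *Ppbp* rose (0.73, adjusted p = 0.035) and *Itga2b* fell (-1.78, adjusted p = 0.00421). Against NEs 2 of 5 tested lymphocyte genes fell, 1 of 7 fibroblast genes rose and 1 of 2 epithelial genes fell. No erythroid or megakaryocyte gene rose against NEs, *Ppbp* included, and 1 fell.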
